A study of Mus musculus with 36 samples.

Results

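The genes described here are *Slc40a1*, which encodes the iron exporter ferroportin, and a set of genes that take up, move, store or release iron: *Tfrc*, *Slc11a2*, *Slc11a1*, *Fth1*, *Hmox1*, *Lcn2* and *Trf*. They were read from Affymetrix arrays of 36 mouse mammary tumors, in the authors' log2 RMA values. Of the 8 genes, 7 had a probe set that carried 1 gene symbol, 16 probe sets in all, against 12394 genes and 22690 probe sets on the whole array. *Trf* shared its probe set with *Srprb*, so no value is given for it. The set was chosen by the known roles of its genes in iron handling and selected on the log2 values of *Slc40a1* by label in 67NR tumors from BALB/c mice. Its values in every comparison that holds those tumors are therefore a description, with no test.

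The tumors grew from 67NR or 66cl4 cells, mouse mammary tumor lines, injected into the fourth mammary fat pad. The hosts were BALB/c mice or NSG mice (NOD/SCID/Ifrg2r -/-), an immune-deficient strain that lacks mature T, B and NK cells. The design asked what depletion of BPTF, a subunit of the chromatin remodeler NURF, changed in tumor RNA with and without such cells. Each cell line and host had 3 control and 6 BPTF KD tumors, and the control cells carried control shRNAs. The KD cells carried 1 of 2 shRNAs against *Bptf*, delivered by retrovirus. The shRNA of each tumor was not used here, so the 6 tumors were counted as independent and p values measure the spread between tumors. 67NR tumors were taken on day 21 and 66cl4 tumors on day 28, after injection of different cell numbers, so cell line cannot be told apart from these. Hosts differed in strain background as well as in immune cells. Any difference in the date of the experiments that went with host cannot be told apart from it.

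Cells take up iron bound to transferrin through the transferrin receptor, and the metal transporter encoded by *Slc11a2* passes it from the endosome to the cytosol. Iron that is not used is held in ferritin or leaves the cell through ferroportin. Macrophages recycle iron from heme, and their ferroportin is removed when the hormone hepcidin binds it. In tumors, iron can be held by the cancer cells or passed to them by the macrophages around them.

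*Bptf* itself, read from its brightest probe set, did not mark the labels well in 67NR. Its level in 67NR from BALB/c mice was 9.73, 9.76 and 10.31 in controls. The corresponding BPTF KD tumors were at 9.82, 10.68, 10.12, 9.83, 10.48 and 8.34, of which 1 was below and 2 were above every control. In NSG mice, 3 of 6 tumors of 67NR labelled BPTF KD were below every control (log2 difference -0.27 ± 0.22 SE, limma adjusted p = 0.644). In 66cl4 from BALB/c mice 6 of 6 were below every control, as for 4.9% of all genes (-1.08 ± 0.20, adjusted p = 0.0628). In NSG mice 5 of 6 were (-0.33 ± 0.12, adjusted p = 0.584). BPTF KD therefore stands for each tumor's label throughout. These are RNA values of whole tumors, host cells included, and no other *Bptf* probe set was read. The paper examined BPTF protein in the cultured 67NR and 66cl4 cells by Western blot, which was not repeated here. Macrophage markers were bright in all groups, with means of 10 genes between 11.05 and 12.82. The mean of 7 T and NK cell markers was 6.77 to 9.83 in BALB/c hosts and 5.10 to 5.58 in NSG hosts. Of the 6 epithelial markers, *Krt19* and *Cdh1* were among the dimmest 25% of genes. Of the tumors labelled BPTF KD in 67NR in BALB/c mice, replicate 3 had a skeletal muscle mean of 12.22, and replicate 1 had the widest gap between 3′ and 5′ probe sets of the housekeeping controls, 1.315 log2 units, where a wide gap is a sign of degraded RNA. For *Gapdh* alone that gap ran from 0.14 to 0.52 in BALB/c tumors and from -0.12 to 0.17 in NSG tumors, so it went largely with host. For actin it ran from 0.73 to 2.11 and from 0.81 to 1.48. The skeletal muscle mean was 6.75 to 11.8 in 66cl4 tumors from BALB/c mice and 5.10 to 7.29 in those from NSG mice.

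*Slc40a1* (chromosome 1, 45908070 to 45926532, GRCm38.p6) was highest in control 67NR tumors from BALB/c mice, at 10.85, 10.95 and 10.62. In the 6 BPTF KD tumors of that group it was at 8.07, 9.18, 7.42, 9.11, 8.63 and 9.49. All 6 lay below every control, a mean of 8.65 ± 0.78 (SD, n = 6) against 10.8 ± 0.17 (SD, n = 3), or 4.46-fold lower. On this contrast 2.83% of all genes had 6 of 6 tumors below every control, and 0.0% passed limma's adjusted threshold of 0.05. Since this contrast chose the gene, nothing is read from its size.

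In 67NR tumors from NSG mice, which did not serve to choose the gene, *Slc40a1* was again lower with BPTF KD. The controls were at 8.36, 8.47 and 8.75, and the KD tumors at 6.74, 6.59, 6.94, 6.56, 6.62 and 6.58. All 6 KD tumors lay below every control, as for 3.1% of all genes, and the gap between the groups was larger than the range within either. The mean was 3.62-fold lower (log2 difference -1.86 ± 0.12 SE, limma adjusted p = 0.000198, lower in 6 of 6 tumors). *Slc40a1* was the only 1 of the 7 genes to pass in this comparison, in which 1.14% of all genes did. At an unadjusted p under 0.05 there were 3 of the 7, against 14.1% of all genes. The others were *Fth1*, described below, and *Slc11a2* (-0.42 ± 0.17, limma adjusted p = 0.287). The second *Slc40a1* probe set gave -1.50 ± 0.13 in these tumors (adjusted p = 0.00181 over all probe sets). Leaving out each tumor in turn kept the difference between -1.94 and -1.74, and the fit of all 36 tumors gave an adjusted p of 0.0292.

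In 66cl4 tumors the groups overlapped in both hosts. In BALB/c mice, controls were at 7.20, 7.18 and 8.83, and KD tumors ran from 5.82 through a median of 7.69 to 8.16 (log2 difference -0.34 ± 0.52 SE, limma adjusted p = 0.729). In NSG mice, controls were at 7.19, 7.66 and 8.91 and KD tumors ran from 7.08 through 7.37 to 7.99 (-0.42 ± 0.34, adjusted p = 0.849). In each host, control replicate 3 was the highest control by more than 1 log2 unit. Without it the differences were 0.20 and 0.08, in the opposite direction. None of the 7 genes passed in 66cl4 tumors of either host, where 0.186% of all genes passed in BALB/c and 0.0% in NSG mice. At an unadjusted p under 0.05 there were 0 of the 7 in BALB/c and 1 in NSG mice, *Slc11a1*, against 25.8% and 7.68% of all genes. By the methods' t-test the numbers of the 7 were the same.

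Whether the KD difference itself differed between cell lines was tested in NSG mice, where *Slc40a1* was 1.44 ± 0.39 log2 units more negative in 67NR than in 66cl4. This missed the threshold (limma adjusted p = 0.0896), 0 of 7 genes passed it, and 0.96% of all genes did. Without 66cl4 NSG control replicate 3 the difference was -1.93 ± 0.29 and passed (adjusted p = 0.00668). The same difference between lines in BALB/c mice was -1.81 ± 0.73, a description. Between hosts, the KD difference of *Slc40a1* in 67NR was -0.30 ± 0.45, also a description, and in 66cl4 it was 0.07 ± 0.68 (adjusted p = 0.968). In these 3 comparisons 0.0% of all genes passed, and none of the iron genes tested did. At an unadjusted p under 0.05 there were 0 of 6 between lines in BALB/c mice (9.64% of all genes). Between hosts there was 1 in each line, *Slc11a1* (6.89% of all genes in 67NR and 11.9% in 66cl4). Between lines in NSG mice there were 2 of 7, *Slc40a1* and *Fth1* (10.1% of all genes).

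**Figure D1:**
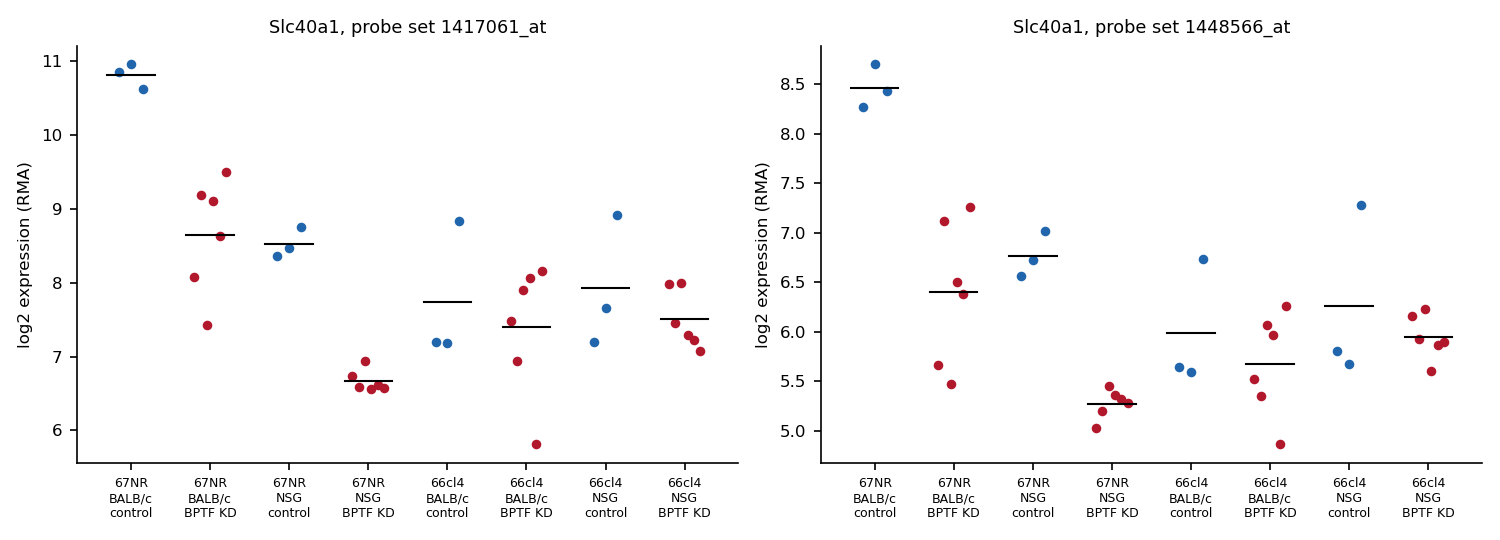
*Slc40a1* in each of 36 tumors, by cell line, host and label, for its brightest probe set (left) and its other probe set (right), as log2 RMA expression on separate vertical axes. Blue points are controls, red points tumors labelled BPTF KD, and bars are group means; 67NR controls from BALB/c mice lie above all other tumors, and in NSG mice the 67NR KD tumors lie below their controls with no overlap.

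Ordered by mean, *Slc40a1* was at 10.8 in 67NR BALB/c controls, 8.65 in 67NR BALB/c KD tumors and 8.53 in 67NR NSG controls. The 4 groups of 66cl4 followed, at 7.92 in NSG controls, 7.74 in BALB/c controls, 7.50 in NSG KD tumors and 7.39 in BALB/c KD tumors. Last came 67NR NSG KD tumors at 6.67. The top group lay above all others with no overlap. Below it each group overlapped its neighbour in this order, and 1 BALB/c KD tumor of 66cl4, at 5.82, was lower than every 67NR NSG KD tumor. In NSG hosts, KD tumors of 67NR were below those of 66cl4 by 0.83 ± 0.22 log2 units (limma adjusted p = 0.00536). They did not overlap, as for 22.0% of all genes, while the controls overlapped (67NR higher by 0.61 ± 0.32, adjusted p = 0.153). The line difference in KD tumors missed the threshold in the fit of all 36 tumors (adjusted p = 0.0604). That in controls passed without 66cl4 NSG control replicate 3 (1.10 ± 0.24, adjusted p = 0.0026). The host difference in 67NR, BALB/c over NSG, was 2.28 ± 0.37 in controls and 1.98 ± 0.26 in KD tumors, a description. By its other probe set it was 1.70 and 1.13. In 66cl4 it was -0.18 ± 0.56 (adjusted p = 0.848) and -0.11 ± 0.39 (adjusted p = 0.9), with hosts overlapping.

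Macrophages are a known site of ferroportin. In 67NR tumors from NSG mice the macrophage mean was 11.63, 11.15 and 11.46 in controls and 11.05 to 11.61 in KD tumors, with group means of 11.41 and 11.25. The ranges overlapped, and 3 of 6 KD tumors were below every control. The fibroblast mean of 7 genes was 10.31 to 10.98 in controls and 11.07 to 12.19 in KD tumors, with no overlap. The epithelial mean was also higher in KD tumors, 6.24 to 7.14 against 5.57 to 6.02, and the mammary secretory mean was lower, 4.93 to 5.17 against 5.25 to 5.62. Of the 6 mammary secretory genes, 4 (*Csn1s1*, *Csn2*, *Wap* and *Btn1a1*) were among the dimmest 25% of genes. Endothelial means overlapped (6.16 to 6.61 against 6.28 to 7.04), as did adipocyte means (6.96 to 8.26 against 6.95 to 9.37). The part of any of these in the difference was not tested. In bulk tumor RNA, fewer cells of a type and less RNA per cell cannot be told apart.

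In 67NR tumors from BALB/c mice the marker lists varied more. The macrophage mean was 11.50 to 11.61 in controls and 11.23 to 12.82 in KD tumors, and the fibroblast mean was 9.36 to 9.77 against 9.36 to 11.8. The 2 KD tumors with the lowest *Slc40a1*, replicates 3 and 1, had the highest fibroblast means, 11.5 and 11.8. They are also the tumors named above for skeletal muscle markers and for the gap of the housekeeping controls. Without both, *Slc40a1* was lower by a log2 difference of -1.70 in place of -2.16. KD replicates 2 and 6 had fibroblast means within the control range, 9.36 and 9.38, and also lay below every control for *Slc40a1*. The part of fibroblasts in these values was not tested. T and NK cell markers were higher in all 6 KD tumors, 7.83 to 9.83 against 7.48 to 7.75. Erythroid genes, which would mark blood, were dim in every group: 5 of 10 could be read, all among the dimmest 25% of genes, with means of 4.50 to 4.91.

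**Figure D2:**
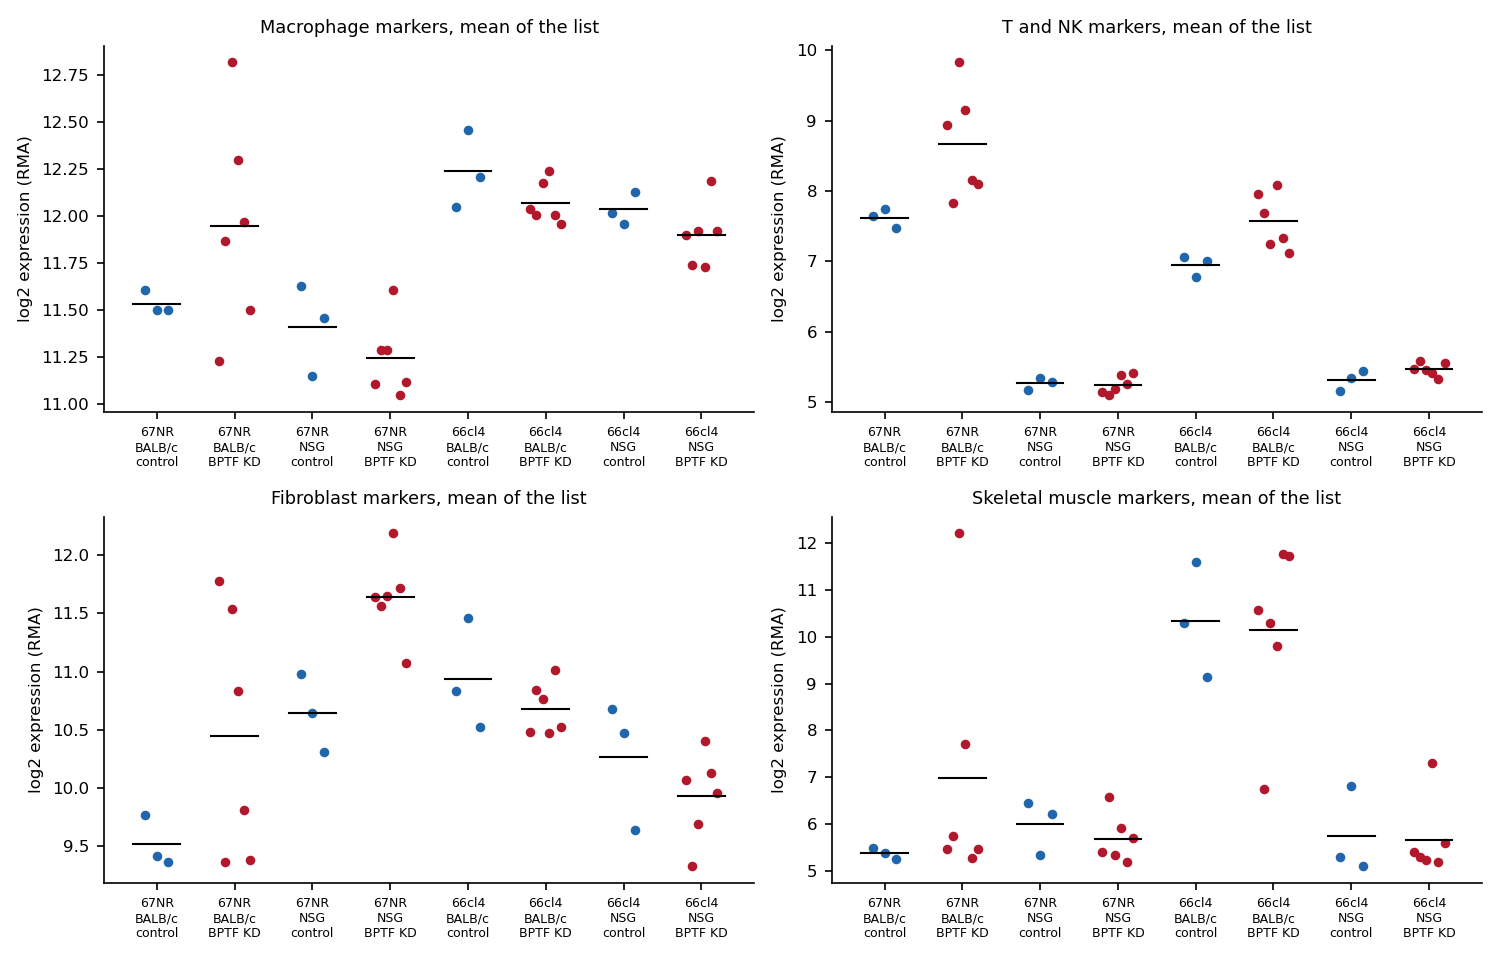
Mean log2 RMA expression of 4 marker lists in each of 36 tumors, by cell line, host and label (blue, control; red, BPTF KD; bars, group means). Vertical axes differ between panels. Fibroblast markers are higher in 67NR KD tumors from NSG mice (11.07 to 12.19) than in their controls (10.31 to 10.98), and the macrophage ranges overlap there.

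Over all 36 tumors, the genes whose deviations from the 8 group means were most like those of *Slc40a1* were *Pkmyt1* (Pearson r = 0.72), *Mbnl3* (0.70), *Phf19* (0.69), *Alg14* (0.68) and *Tspan5* (0.67). The least like were *Mmp2*, a matrix metalloproteinase made by fibroblasts (-0.77), and *P3h3*, a collagen prolyl hydroxylase (-0.77). The other iron genes were far from either end, from *Fth1* (0.35) and *Slc11a2* (0.34) through *Tfrc* (0.01) to *Hmox1* (-0.20). These are correlations across tumors that share arrays, normalization and hosts within groups, given without a p.

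*Tfrc* (chromosome 16, 32608896 to 32632794) encodes the transferrin receptor, through which cells take up iron. It differed by cell line, and no difference by label passed the test. BALB/c controls read 10.03, 10.14 and 10.27 for 67NR against 11.68, 10.87 and 11.66 for 66cl4. NSG controls read 10.60, 11.11 and 10.39 against 12.10, 12.30 and 11.65. The lines did not overlap in controls of either host, as for 40.7% of all genes in BALB/c and 49.2% in NSG mice. They also did not in NSG KD tumors (22.0% of all genes), while in BALB/c KD tumors 5 of 6 of the 67NR tumors lay below every 66cl4 tumor.

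The *Tfrc* level was lower in 67NR than in 66cl4 in all 4 comparisons of the lines. The log2 differences were -1.26 ± 0.33 (SE) in BALB/c controls (limma adjusted p = 0.0158), -1.26 ± 0.23 in BALB/c KD tumors (0.00109), -1.32 ± 0.27 in NSG controls (0.000981) and -1.43 ± 0.19 in NSG KD tumors (7.25e-06). These are 2.39- to 2.70-fold. All 6 probe sets of *Tfrc* were lower in 67NR in each of the 4 comparisons, though 5 of the 6 were dimmer and their differences smaller, down to -0.33. In BALB/c controls 2 of the 6 missed the threshold, at -0.33 (adjusted p = 0.52) and -0.49 (0.143), and in NSG controls 2 did, at -0.82 (0.071) and -0.47 (0.181). The call in BALB/c controls was lost when 1 of 4 tumors was left out, 67NR control replicate 1 or 2 or 66cl4 control replicate 1 or 3 (adjusted p from 0.0501 to 0.0697). With BPTF KD, *Tfrc* was -0.11 ± 0.27 in 67NR and -0.11 ± 0.26 in 66cl4 from BALB/c mice, and -0.29 ± 0.24 and -0.18 ± 0.20 from NSG mice, none past the threshold. Host differences, BALB/c minus NSG, were between -0.61 and -0.37 log2 units, none past the threshold. With an RNA integrity covariate *Tfrc* passed between hosts in 67NR KD tumors (-0.57 ± 0.21, adjusted p = 0.0497), 66cl4 controls (-0.68 ± 0.21, 0.0207) and 66cl4 KD tumors (-0.98 ± 0.18, 0.000978). It also passed in 66cl4 KD tumors without BALB/c KD replicate 3 (-0.66 ± 0.20, 0.0458).

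The bases before an annotated *Tfrc* start are shown because *Tfrc* passed between the lines in all 4 comparisons with differences of similar size. They come from RefSeq (GRCm38.p6), chr16:32608646-32608898 on the plus strand, and end 3 bases past that start. Capitals mark ACGTG, the core of the sites that hypoxia-inducible factors bind, which lies across this start. A second *Tfrc* window, chr16:32608872-32609121, ends at its own start. It holds the same ACGTG at its far end, away from that second start.
Tfrc: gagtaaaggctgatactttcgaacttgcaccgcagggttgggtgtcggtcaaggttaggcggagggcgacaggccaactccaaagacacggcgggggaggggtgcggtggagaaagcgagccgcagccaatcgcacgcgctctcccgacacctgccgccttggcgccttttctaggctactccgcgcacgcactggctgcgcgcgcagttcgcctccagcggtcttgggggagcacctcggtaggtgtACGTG
ACGTG on either strand was found in 19.6% of the 32851 promoters of the table, each searched over its whole window. The antioxidant response core TGACNNNGC was not found in either *Tfrc* window (12.4% of all promoters). Nor was the gamma-activated site TTCNNNGAA (8.3%) or the interferon-stimulated response element (3.44%). The table also held promoters of *Slc11a1*, *Lcn2* and *Fth1*, where none of the 4 motifs was found. A match is a string of letters, not a measured binding site.

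*Slc11a2* (chromosome 15, 100387898 to 100424209), which encodes the divalent metal transporter of the endosome, differed between lines in the other direction. BALB/c controls read 8.29, 8.37 and 8.46 for 67NR against 6.95, 7.18 and 7.05 for 66cl4. NSG controls read 7.96, 7.47 and 8.30 against 7.09, 7.24 and 7.23. Again the lines did not overlap, and nor did they in KD tumors of either host, as for 40.7% of all genes in BALB/c controls, 49.2% in NSG controls, 6.78% in BALB/c KD tumors and 22.0% in NSG KD tumors. The log2 difference was 1.31 ± 0.18 (SE) in BALB/c controls (limma adjusted p = 0.00011), 1.02 ± 0.13 in BALB/c KD tumors (2.68e-05), 0.72 ± 0.17 in NSG controls (0.00264) and 0.51 ± 0.12 in NSG KD tumors (0.00174). The 2 dimmer probe sets were also higher in 67NR, by 0.21 to 0.82, and in NSG KD tumors neither passed (adjusted p = 0.0752 and 0.0664). In BALB/c controls, where the main difference was largest, 1 of them did not pass either (0.27, adjusted p = 0.31).

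Of the genes tested, 2 of 6 passed between lines in BALB/c controls, *Tfrc* and *Slc11a2*, where 14.0% of all genes did. In BALB/c KD tumors 3 of 6 passed (19.9% of all genes), the third being *Lcn2*, described below. In NSG controls 3 of 7 passed (34.1% of all genes) and in NSG KD tumors 4 of 7 (45.3%), with *Slc11a1* in both and *Slc40a1* in the latter. In NSG hosts the shares of iron genes were close to those of all genes.

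*Slc11a1* (chromosome 1, 74375014 to 74386057) encodes the metal transporter of the phagosome, used by macrophages and neutrophils. Its level differed between hosts past the threshold in KD tumors of both lines and not in controls. In 67NR KD tumors it was at 8.10, 8.44, 10.41, 10.19, 9.24 and 8.80 in BALB/c mice, and at 6.90, 7.26, 7.57, 7.82, 7.03 and 6.97 in NSG mice. The hosts did not overlap, as for 8.46% of all genes, and the mean was 3.83-fold higher in BALB/c mice (log2 difference 1.94 ± 0.32 SE, limma adjusted p = 0.00044). In 66cl4 KD tumors it ran from 8.76 to 9.26 in BALB/c and from 8.26 to 8.60 in NSG mice, again without overlap, as for 5.12% of all genes (0.55 ± 0.11, adjusted p = 0.00249). That call was lost in the fit of all 36 tumors (adjusted p = 0.257). In controls the host differences were 0.50 ± 0.46 in 67NR (adjusted p = 0.77) and 0.06 ± 0.15 in 66cl4 (adjusted p = 0.805). In 67NR controls the hosts did not overlap, with 3 of 3 BALB/c tumors above every NSG tumor. Among 67NR controls 33.0% of all genes had hosts that did not overlap, in either direction. In 66cl4 controls the hosts overlapped for *Slc11a1*, and did not for 35.0% of all genes.

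With BPTF KD in 67NR tumors from BALB/c mice, *Slc11a1* was above every control in 5 of 6 tumors (log2 difference 1.05 ± 0.49 SE), and none of the 6 genes other than *Slc40a1* passed (smallest limma adjusted p = 0.656). At an unadjusted p under 0.05 there were 0 of 6, against 7.75% of all genes. The fit of all 36 tumors gave *Slc11a1* an adjusted p of 0.0405. The 2 tumors with the highest *Slc11a1*, replicates 3 and 4 at 10.41 and 10.19, also had the highest macrophage means, 12.82 and 12.30. The tumor with the lowest, replicate 1 at 8.10, had the lowest macrophage mean, 11.23. The part of macrophages in these values was not tested. In NSG mice the difference had the other sign in both lines, -0.39 ± 0.20 in 67NR (adjusted p = 0.423) and -0.23 ± 0.10 in 66cl4 (0.632). The test of the host difference itself did not pass in 67NR (1.44 ± 0.56, adjusted p = 0.607) or in 66cl4 (0.48 ± 0.19, adjusted p = 0.38). Between lines in NSG hosts, *Slc11a1* was lower in 67NR, by -0.97 ± 0.19 in controls (adjusted p = 0.000681) and -1.13 ± 0.13 in KD tumors (2.02e-06). Neither pair of groups overlapped, as for 49.2% and 22.0% of all genes. The macrophage mean there was also lower in 67NR, 11.05 to 11.63 against 11.73 to 12.19. So was the mean of 8 neutrophil markers, 5.16 to 5.87 against 6.35 to 6.85, though 5 of the 8, *Mpo*, *Elane*, *Ngp*, *Cxcr2* and *Mmp8*, were among the dimmest 25% of genes. The part of either list in the difference was not tested.

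Between hosts, 2 of 6 genes passed in 67NR KD tumors, *Slc11a1* and *Slc11a2* (0.66 ± 0.15 higher in BALB/c, adjusted p = 0.0052), where 22.2% of all genes did. In 67NR controls 0 of 6 passed (0.549% of all genes, 1 of 6 at an unadjusted p under 0.05). In 66cl4 KD tumors 1 of 7 passed (10.7% of all genes) and in 66cl4 controls 0 of 7 (20.4% of all genes). In the latter 1 of 7 had an unadjusted p under 0.05 (35.5% of all genes). Leaving out replicates 1 and 3 of the 67NR BALB/c KD tumors raised the first count to 4 of 6, with *Fth1* (0.54 ± 0.08) and *Tfrc* (-0.66 ± 0.19) added.

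**Figure D3:**
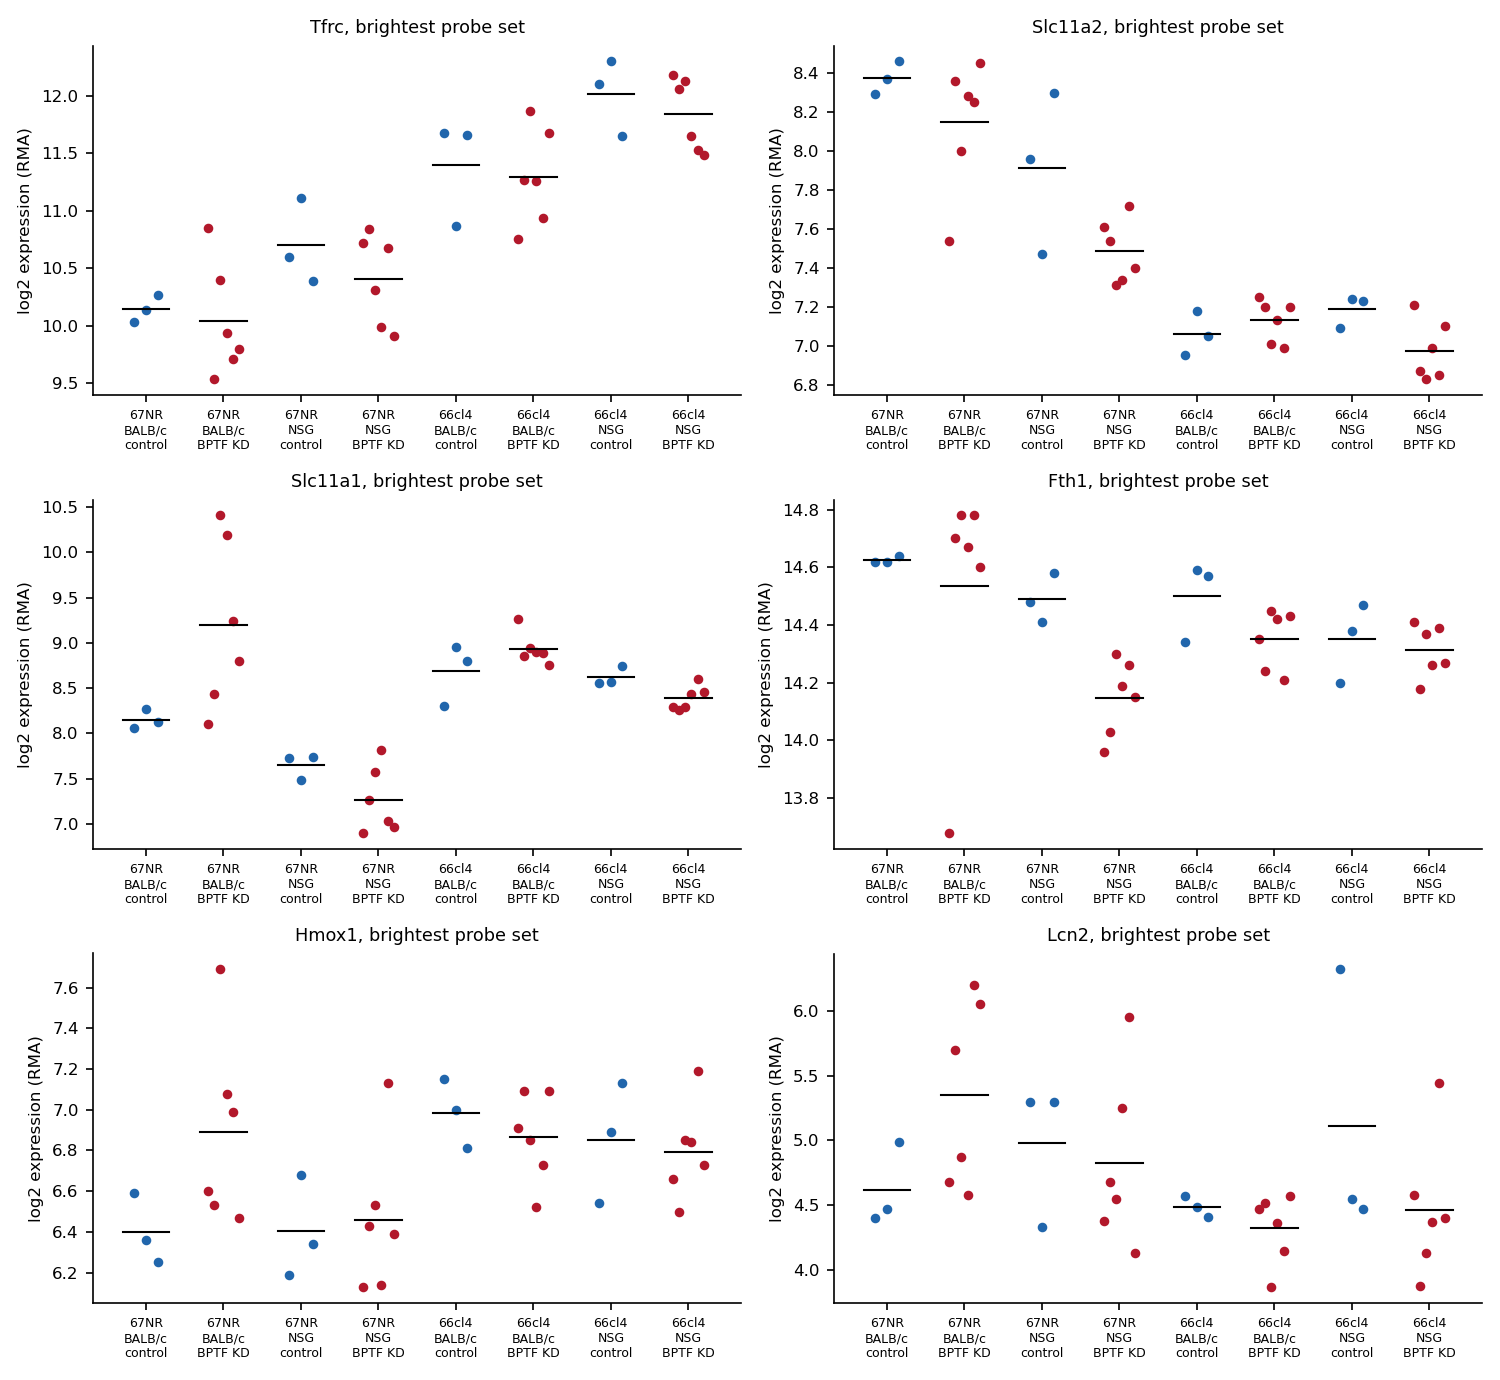
Brightest probe set of the other 6 measured iron genes in each of 36 tumors, by cell line, host and label (log2 RMA; blue, control; red, BPTF KD; bars, group means). Vertical axes differ between panels. *Tfrc* is lower and *Slc11a2* higher in 67NR than in 66cl4, and *Slc11a1* in 67NR KD tumors is higher in BALB/c than in NSG mice.

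*Fth1* (chromosome 19, 9980600 to 9985111), the heavy chain of the iron store ferritin, was among the brightest genes of the array, with a mean of 14.4 over all tumors. In 67NR tumors from NSG mice the controls were at 14.48, 14.41 and 14.58 and the KD tumors at 13.96, 14.03, 14.30, 14.19, 14.26 and 14.15. All 6 were below every control, as for 3.1% of all genes, and the log2 difference of -0.34 ± 0.11 (SE) missed the threshold (limma adjusted p = 0.175). Its second probe set gave -0.30 (adjusted p = 0.202). Elsewhere the KD differences of *Fth1* were -0.15 to -0.04, with adjusted p of 0.384 or more. Near the top of an array's range, differences can be compressed. In 67NR KD tumors from BALB/c mice replicate 1 was at 13.68 and the others between 14.60 and 14.78, and without it the KD difference was 0.08 in place of -0.09.

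*Hmox1* (chromosome 8, 75093618 to 75100593) breaks down heme and sets its iron free. It was between 6.13 and 7.69 in all tumors and passed in none of the 16 comparisons. Its KD differences were 0.49 ± 0.26 (SE) in 67NR and -0.12 ± 0.14 in 66cl4 from BALB/c mice, and 0.06 ± 0.21 and -0.06 ± 0.16 from NSG mice. The highest tumor, at 7.69, was replicate 3 of the 67NR BALB/c KD tumors, which also had the highest macrophage mean. *Hmox1* was lower in 67NR than in 66cl4 by -0.59 ± 0.25 in BALB/c controls (limma adjusted p = 0.145), without overlap, as for 40.7% of all genes. Without replicates 1 and 3 of the 67NR BALB/c KD tumors, which enter that fit only through the spread, it passed (adjusted p = 0.0311).

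*Lcn2* (chromosome 2, 32384637 to 32387739) encodes lipocalin 2, which binds bacterial siderophores and the iron in them. It was dim, with a mean of 4.76 over all tumors, among the dimmest 25% of genes, so its differences carry little signal. It was at 4.68, 5.70, 4.87, 4.58, 6.20 and 6.05 in 67NR BALB/c KD tumors, and at 4.47, 4.52, 3.87, 4.36, 4.15 and 4.57 in those of 66cl4. The lines did not overlap, as for 6.78% of all genes (1.02 ± 0.26 higher in 67NR, limma adjusted p = 0.00955). In controls of BALB/c mice the line difference was 0.13 ± 0.36 (adjusted p = 0.884). The highest tumor of all, at 6.32, was a 66cl4 NSG control. KD differences ran from -0.65 ± 0.42 in 66cl4 from NSG mice to 0.73 ± 0.40 in 67NR from BALB/c mice, none past the threshold.

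**Figure D4:**
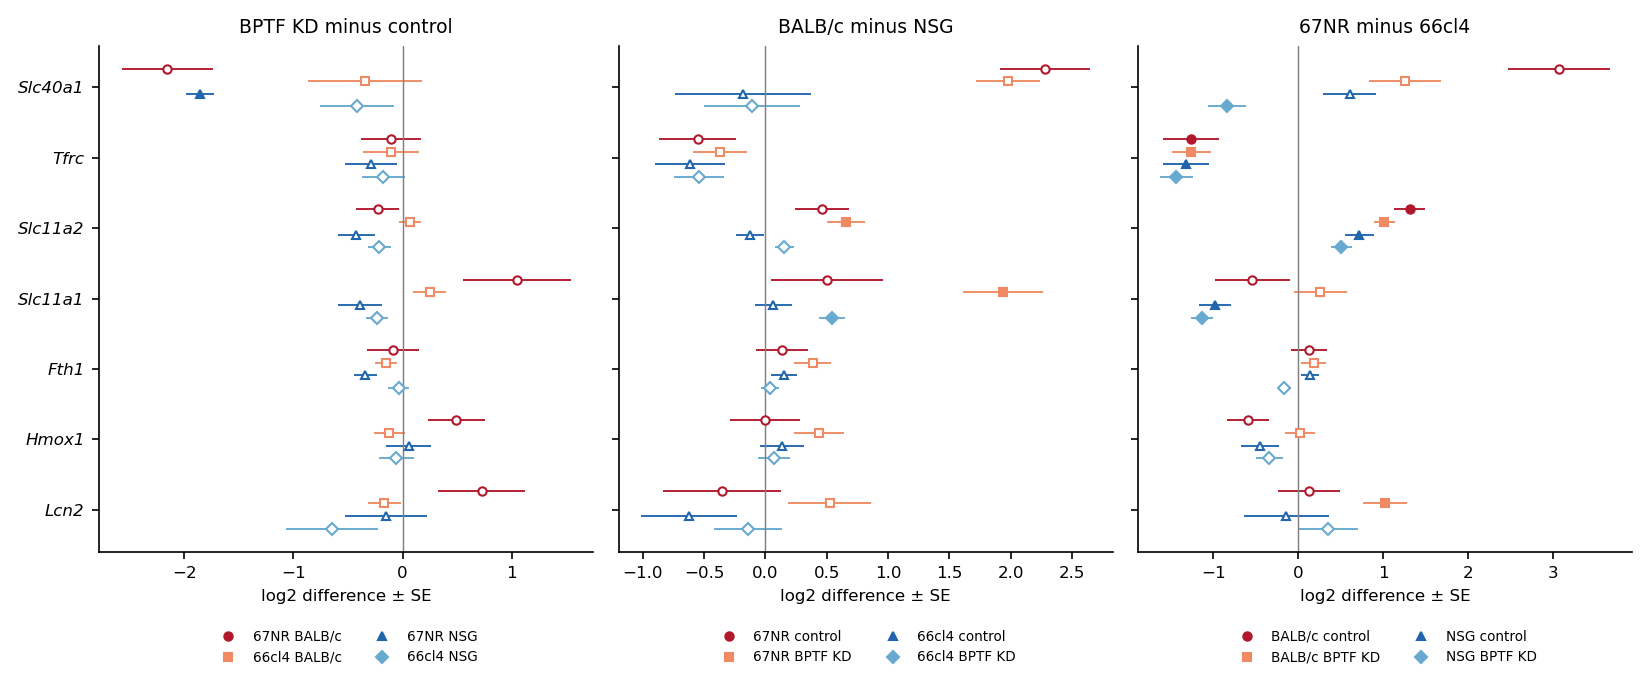
Log2 difference ± SE of 7 iron genes for BPTF KD minus control (left), BALB/c minus NSG (middle) and 67NR minus 66cl4 (right), in the 4 settings named under each panel. Filled symbols passed limma's adjusted threshold of 0.05 over all genes, open symbols did not or, for *Slc40a1* where 67NR BALB/c tumors enter, were not tested; *Slc40a1* in 67NR NSG tumors (-1.86) is the only filled symbol of the left panel.

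Across the 7 genes the median KD difference was -0.12 log2 units in 66cl4 from BALB/c mice, -0.34 in 67NR from NSG mice and -0.21 in 66cl4 from NSG mice, and 0.20 across the 6 other than *Slc40a1* in 67NR from BALB/c mice. The medians of all genes were 0.03, 0.02, 0.01 and -0.00. None of the 7 genes had its 6 KD tumors above every control in any of these, against 3.13% of all genes in 67NR and 3.78% in 66cl4 from BALB/c mice, and 3.76% and 3.32% from NSG mice. In 66cl4 none of the 7 had all 6 below every control, against 4.9% of all genes in BALB/c and 1.05% in NSG mice.

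Of 67 other genes of iron and heme handling, 57 could be read. Under BPTF KD, 0 of 57 passed in each of the 4 comparisons by limma, and at an unadjusted p under 0.05 there were 4 in 67NR and 17 in 66cl4 from BALB/c mice, 10 in 67NR and 6 in 66cl4 from NSG mice. These are 7.02%, 29.8%, 17.5% and 10.5% of the list, against 7.75%, 25.8%, 14.1% and 7.68% of all genes. The median of the 57 was between -0.03 and -0.01, against -0.00 to 0.03 for all genes. In 67NR NSG tumors the smallest p value was that of *Slc25a37*, the importer of iron into mitochondria (-1.17 ± 0.32, adjusted p = 0.115). Its 6 KD tumors lay below every control, as for 3.1% of all genes. Next came *Cp*, which encodes the ferroxidase ceruloplasmin (-0.63 ± 0.21, 0.187), and *Slc39a14*, a metal importer (-0.50 ± 0.18, 0.23). In 67NR BALB/c tumors the smallest p values were those of *Ltf*, which encodes lactoferrin (0.75 ± 0.22), *Nr1h3*, a sterol receptor of macrophages (0.95 ± 0.29), and *Slc39a8*, a metal importer (-0.68 ± 0.25), each with an adjusted p of 0.609. For *Ltf* and *Nr1h3* all 6 KD tumors lay above every control, as for 3.13% of all genes. In 66cl4 BALB/c tumors they were *Cd163*, the hemoglobin scavenger receptor (-1.02 ± 0.24, 0.0698), *Spic*, a factor of iron-recycling macrophages (0.60 ± 0.17, 0.0818), and *Abcg2*, a porphyrin exporter (0.76 ± 0.22, 0.0849). In 66cl4 NSG tumors they were the heme synthesis enzymes *Uros* (-0.33 ± 0.10) and *Cpox* (-0.25 ± 0.11) and the hepcidin inducer *Bmp6* (0.25 ± 0.10), at adjusted p of 0.576 or more. For *Uros* all 6 KD tumors lay below every control, as for 1.05% of all genes.

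Between the lines, a share of these genes passed that was near or above that of all genes. Whether the list differs from all genes was not tested. In 67NR, 5 of 57 were higher and 5 lower than in 66cl4 in BALB/c controls, 7 and 9 in BALB/c KD tumors, 7 and 16 in NSG controls and 9 and 17 in NSG KD tumors. That is 17.5%, 28.1%, 40.4% and 45.6% of the list, against 14.0%, 19.9%, 34.1% and 45.3% of all genes. *Heph*, a ferroxidase that works with ferroportin, was lower in 67NR by log2 differences of -3.03 ± 0.54 to -2.42 ± 0.38 (limma adjusted p from 0.00104 to 1.51e-08), with 67NR means of 4.34 to 4.79. Only 10.3% to 16.5% of genes had a lower mean in those groups, so the sizes are set against a dim level. *Slc25a28*, an importer of mitochondrial iron, was lower by -1.28 ± 0.09 to -1.21 ± 0.15 in the 4 settings (largest adjusted p = 6.38e-05). *Hfe*, which takes part in iron sensing, was lower by -1.46 ± 0.23 in NSG controls (9.64e-05), and *Cp* by -1.82 ± 0.16 in NSG KD tumors (7.82e-08). *Neo1*, a coreceptor of hepcidin control, was higher in 67NR by 1.57 ± 0.31 in BALB/c controls (0.00234), 1.37 ± 0.18 in NSG controls (2.14e-05) and 1.20 ± 0.13 in NSG KD tumors (7.44e-07), and *Steap1*, of the metalloreductase family, by 1.07 ± 0.23 (0.00476) and 0.92 ± 0.13 (4.72e-05) in the controls.

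Between hosts, 5 of 57 were higher and 4 lower in BALB/c than in NSG mice in 67NR KD tumors, 3 and 5 in 66cl4 controls, 1 and 1 in 66cl4 KD tumors and 0 and 0 in 67NR controls (5 at an unadjusted p under 0.05). That is 15.8%, 14.0%, 3.51% and 0.0% of the list, each below the share of all genes, 22.2%, 20.4%, 10.7% and 0.549%. In 67NR KD tumors *Spic* was higher by 1.40 ± 0.30 log2 units (limma adjusted p = 0.00252), *Ltf* by 1.03 ± 0.17 (0.000482) and *Nr1h3* by 1.00 ± 0.19 (0.00105). *Alas2*, the erythroid enzyme that opens heme synthesis, was lower by -1.09 ± 0.21 (0.00126) and *Urod*, also of heme synthesis, by -0.57 ± 0.10 (0.000695). In 67NR controls *Alas2* differed by -1.30 ± 0.30 (limma adjusted p = 0.0592) and *Spic* by 1.10 ± 0.42 (0.322), neither past the threshold. Both had hosts that did not overlap there, as for 33.0% of all genes. In 66cl4, *Slc39a8* was lower in BALB/c mice by -1.06 ± 0.21 in controls (0.00506) and -0.56 ± 0.15 in KD tumors (0.0192).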

How the data were processed

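Total RNA of 36 tumors was hybridised to Affymetrix mouse arrays after necrotic tissue had been cut away. The authors deposited log2 values summarised and normalised by RMA, whose version is not given in the sources used here. The values were used as deposited, with 22690 probe sets, no missing value, array medians of 7.03 to 7.21 and correlations between arrays of 0.918 to 0.9961. The number of arrays limits the precision. No array matched another in all its values.

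For each gene the brightest probe set with 1 symbol was taken (20393 of 22690, with 691 carrying several and 1606 none), which gave 12394 genes. Symbols were updated through the Entrez ID with RefSeq names. Levels of different probe sets were not compared. Groups were compared with limma 3.58.1 in R 4.3.3, two-sided, in 16 comparisons, at an adjusted p of 0.05 by Benjamini-Hochberg across the 12394 genes. BPTF KD was compared with control in fits of 9 tumors, hosts in the 18 tumors of a line and lines in the 18 tumors of a host, and the differences of the KD effect were interaction terms. Probe sets of the iron genes were also adjusted over all probe sets with 1 symbol. The procedure was tested on simulated data. Tables were made in Python 3.11.15 (pandas 2.3.3, numpy 2.4.6, scipy 1.17.1), figures with matplotlib 3.10.9.

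The genes, the lists of 67 other iron genes and of cell type markers, and the tests were chosen with earlier results of these data known. Genes named beyond the members were, of the 67, in each comparison up to 6 with the smallest p past the threshold, or up to 3 with the smallest p where none passed, and the 5 most and 2 least like *Slc40a1*. A selection of the genes that rule names is given. Alternatives were a fit of all 36 tumors, subtraction of array medians, leaving out the dimmest 25% of genes, a replicate block, an RNA integrity covariate, the second brightest probe set and every probe set, the methods' t-test and leaving out each tumor. Leaving out 2 tumors together was added after seeing the data. Replicate numbers are shared between groups, and correlations of same-numbered tumors ran from -0.45 to 0.27, so they were not read as pairs.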

Additional observations from a re-analysis of the deposited data

Results flagged for a closer look

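Of 28 sets of 6 tumors, for 7 genes in the 4 BPTF KD groups, 2 held a tumor far from the others, and chance alone gives about 1 in 20. *Fth1* had its lowest 67NR BALB/c BPTF KD tumor, replicate 1, at 13.68, and the other 5 between 14.60 and 14.78. *Slc11a1* had its highest 66cl4 BALB/c BPTF KD tumor, replicate 1, at 9.26, and the other 5 between 8.76 and 8.94.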

How the results depend on the processing

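Counts of iron genes that passed were recomputed under each alternative in 16 comparisons, and 344 of 359 stayed within 1.5 times the value in the report. With the fit of all 36 tumors, the BPTF KD comparison in 67NR BALB/c tumors gave 1 (*Slc11a1*) and the host comparison in 66cl4 KD tumors gave 0. With the RNA integrity covariate the host comparisons gave 5 in 67NR KD tumors, 1 in 66cl4 controls and 2 in 66cl4 KD tumors, *Tfrc* among those gained in each. Leaving out 67NR BALB/c BPTF KD replicates 1 and 3 together, an alternative chosen after seeing the data, gave 4 in the host comparison of 67NR KD tumors. With the second brightest probe sets the host comparison in 66cl4 KD tumors gave 2 and the line comparison in BALB/c controls gave 1. Leaving out each tumor gave 1 to 2 in the host comparison of 66cl4 KD tumors (2 without 66cl4 BALB/c BPTF KD replicate 3), 1 to 3 in the line comparison of BALB/c controls, and 0 to 1 in the difference of the KD effect between lines in NSG mice. The cause of these changes was not tested.

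Replicate numbers did not pair the tumors. With the replicate block that last difference gave 1 (*Slc40a1*, limma adjusted p = 0.0351), and the KD difference turned in sign for *Tfrc* in 67NR BALB/c (0.1167) and 66cl4 NSG tumors (0.1067) and for *Hmox1* in 67NR NSG tumors (-0.04). Of 988 values of single genes 33 turned in sign, all of them KD differences that had not passed. For *Tfrc* the second brightest probe set gave 0.0133 in 67NR BALB/c, 0.5717 in 66cl4 BALB/c, 0.18 in 67NR NSG and 0.0633 in 66cl4 NSG tumors. Its 3′ control probe set gave 0.1267, 0.2767 and 0.195 in the first 3 of these, and its 5′ control probe set 0.0183 in the first. A dimmer *Slc11a2* probe set gave 0.075 in 67NR BALB/c and 0.1933 in 66cl4 NSG tumors. *Fth1* was at 0.0608 in 67NR BALB/c tumors without KD replicates 1 and 3, and at 0.005 in 66cl4 NSG tumors after subtraction of array medians. *Lcn2* was at 0.3083 in 67NR NSG tumors with the RNA integrity covariate.

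Leaving out each tumor moved *Slc40a1* between -0.6217 and 0.2033 in 66cl4 BALB/c and between -0.7817 and 0.0783 in 66cl4 NSG tumors. The ranges were -0.1407 to 0.0793 for *Fth1* in 67NR BALB/c, -0.3733 to 0.0317 for *Tfrc* in 66cl4 BALB/c, -0.0793 to 0.1933 for *Hmox1* and -0.4767 to 0.0083 for *Lcn2* in 67NR NSG, and -0.1117 to 0.0233 for *Fth1* and -0.215 to 0.08 for *Hmox1* in 66cl4 NSG tumors. *Slc40a1* in 67NR NSG tumors passed under every alternative run, with adjusted p from 0.000198 to 0.0292. Dim probe sets such as that of *Lcn2* limit what can be seen.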
